A study of Rattus norvegicus with 39 samples.

Results

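The transcripts described here are the long noncoding transcripts that Ensembl annotates in the rat genome and that were counted in sperm RNA of rats given ethylene glycol monomethyl ether (EGME). They were the rows of the Ensembl noncoding table of the classes lincRNA (long intergenic noncoding RNA), antisense or processed transcript with a summed count of at least 39 over the 39 libraries. This rule took 115 of the 1563 rows of the table, and of the 930 rows of the 3 classes. They comprised 80 lincRNA rows, 3 antisense rows and 32 processed transcript rows. Rows with identical counts in every library were treated as one, which left 113 members (79 lincRNA, 2 antisense and 32 processed transcripts) from 97 genes. The 2 members nearest the minimum had a summed count of 39, and the nearest rows outside it had 38. The tables do not pair the Ensembl identifiers with gene names, so the members are numbered from 1 to 113 by falling mean share of counts, and the identifiers are given for a few.

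EGME is a glycol ether solvent that is toxic to the testis. Adult wild-type male Fischer rats, 11 to 12 weeks old, received it by oral gavage in water for 5 days, and sperm were taken from the cauda of the epididymis, where mature sperm are stored, 5 weeks after dosing ended. The groups were EGME0 (water only, 10 males), EGME50 (50 mg/kg/d, 10 males), EGME60 (60 mg/kg/d, 9 males) and EGME75 (75 mg/kg/d, 10 males), and each library held the small RNA of 1 male. The males of all 4 groups were gavaged, so EGME0 stands for the vehicle and not for untreated rats. A cauda sample can hold cells other than sperm, and no label describes a step that removes them.

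Long noncoding RNAs are longer transcripts that do not code for protein. Intergenic ones lie between protein-coding genes, antisense ones run against another gene, and Ensembl's processed transcript class collects spliced transcripts without an open reading frame. Many are transcribed in meiotic and post-meiotic male germ cells, and mature sperm, which are largely silent in transcription, carry RNA mostly as short fragments. In a small RNA library a count on such a transcript is therefore a short read that lies within it, not a measure of the whole molecule.

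The depth behind the members was low. Mitochondrial rRNA, counted in 2 rows, took up 98.4% of the noncoding table and was left out before scaling. The remainder, with identical rows counted once, was 421 to 46357 counts per library, with medians of 3969, 6218, 12323 and 9231 over the 4 groups in order of dose. The libraries that stood apart by their depth were EGME75 replicate 24 with 421 counts and EGME0 replicate 33 with 762 counts. A single count was worth 18.999 per 10000 in the first of them and 0.205 per 10000 in EGME60 replicate 38, which had the highest scaled depth. The number of members with a count followed the same order of groups, with medians of 39, 64.5, 86 and 80.5 of 113 per library. Below, a level is a count per 10000 scaled counts of the library (TMM scaling), a share is a percent of the remaining counts of the table, and a fold change is a log2 value from edgeR's quasi-likelihood fit with its standard error (SE). The p-values were adjusted by Benjamini-Hochberg over all rows tested, with a threshold of 0.05. They measure the spread between males.

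Together the members made up a larger part of the noncoding counts at each higher dose. Their summed share was 2.17% to 15.2% with a median of 6.31% at EGME0, and 4.87% to 20.6% with a median of 12.5% at EGME50. At EGME60 it was 4.22% to 50.9% with a median of 17.4%, and at EGME75 it was 18.1% to 45.0% with a median of 23.9%. The EGME75 libraries all lay above the EGME0 range, whereas EGME50 and EGME60 overlapped it. On the scaled levels the group medians were 517, 1198, 1853 and 2750 per 10000. Member 1 alone held 34.5% of the 85621 member counts, and members 1 to 6 held 66.1%. Without member 1 the median shares were 5.88%, 11.6%, 13.7% and 19.6%, in the same order of dose, and the EGME75 range of 9.26% to 30.6% then overlapped the EGME0 range of 2.17% to 14.8%. As counts per 1e6 counts of all 4 deposited tables, the members summed to medians of 34.2, 72.3, 177 and 280. No test is given for these sums.

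**Figure D1:**
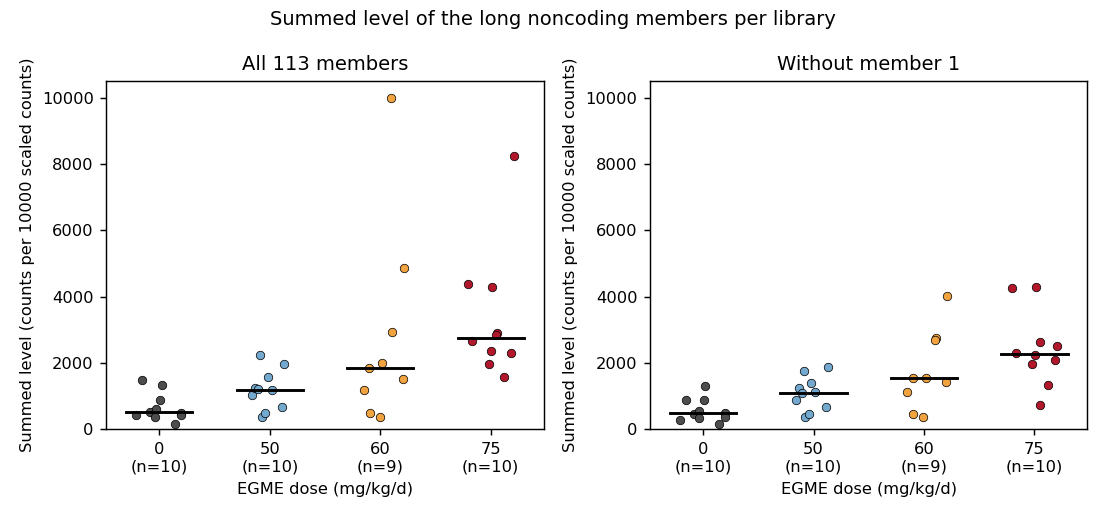
Summed level of the 113 members (left) and of the 112 members other than member 1 (right) in each library, in counts per 10000 scaled counts, by EGME dose. Each point is 1 male and each bar is the group median (517, 1198, 1853 and 2750 per 10000 on the left). The highest EGME60 and EGME75 points on the left come down once member 1 is taken away.

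Other contents of the libraries also differed between the dose groups, some upward and some downward. The share of cytosolic rRNA rows had medians of 2.48%, 5.67%, 11.2% and 11.1% of the noncoding counts over the 4 groups in order of dose, while the class misc_RNA had a median share of 86.2% at EGME0 and 60.8% at EGME75, and that of snRNA was 2.07%, 3.61%, 2.54% and 2.30%. Among miRNAs, 6 germ cell miRNAs (miR-34b, miR-34c and miR-449), all in the table, summed to medians of 26.3%, 21.5%, 15.3% and 13.3% of miRNA counts, with ranges of 19.8% to 33.1% at EGME0 and 6.48% to 22.1% at EGME75. Only miR-449c-5p of this list was at 0 at EGME0. The fall in the sum was not shared by miR-34b-5p, whose median share was 1.35% at EGME0 and 1.37% at EGME75. The 6 of 7 listed blood cell miRNAs found in the table had medians of 0.114%, 0.289%, 0.837% and 0.789%, with ranges of 0% to 0.343% at EGME0 and 0.248% to 4.82% at EGME75. Of these, miR-144-3p was at 0 in every group except EGME60. Against the rise of the sum, miR-142-5p had 43, 19, 18 and 7 counts over the 4 groups in order of dose. The median share of miR-142-3p was 0% in every group. All 9 epithelial and muscle miRNAs were in the table and had medians of 2.48%, 4.21%, 6.64% and 6.93%, with ranges of 1.63% to 3.92% and 3.59% to 13.2%. The striated muscle members of this list did not follow its sum: miR-133a-3p had 173, 15, 15 and 8 counts over the 4 groups, with a median share of 0% at EGME0, and miR-1-3p had 28 counts at EGME0 and 0 in the 3 dosed groups. Fewer or more cells of a type and less or more RNA per cell cannot be told apart in these samples, and the part of other cells in the member results was not tested.

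The first question was which members differed from the water controls at each dose. The filter on low counts left 24 members to test (14 lincRNA, 2 antisense and 8 processed transcripts) among 85 rows of the table, and 89 members were not tested. A row passed with at least 0.136% of the counts in enough libraries of any group. Of the 24 members, 8 (members 8, 15, 17, 18, 19, 20, 22 and 29) had no EGME0 library at that level. Another 2 (members 13 and 23) had 1 such library each. All of these passed through the dosed groups and had to be higher there, so their calls are no separate support for a rise. The counts that follow describe the 24 rows and not all members. The 3 doses share the EGME0 libraries and are therefore not independent of each other.

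At EGME50, 9 of the 24 tested members (37.5%) were higher than EGME0 and none lower, at a background of 27.1% higher and 0% lower among all 85 rows tested. The count at an unadjusted p under 0.05 was 12 of 24, beside 31 of all 85 rows. The EGME50 count was 4 to 5 when control replicate 1, 9, 10, 25, 26 or 34 or EGME50 replicate 12 or 19 was left out. In those fits 7.06% to 20.7% of all rows were higher. At EGME60, 16 of 24 (66.7%) were higher and none lower, against 50.6% and 0% of all rows. At EGME75, 17 of 24 (70.8%) were higher and 3 (12.5%) lower, against 54.1% and 11.8% of all rows. The fitted slope over the 4 doses was positive for 17 members and negative for none, with 55.3% and 5.88% of all rows. With 1 library left out it was positive for 11 to 20 and negative for 0 to 4. The slope of member 6 was negative past the threshold in 31 of these 39 fits, and that of member 14 in 16. All 9 members higher at EGME50 were also higher at both other doses, and 16 were higher at both EGME60 and EGME75. The median log2 fold change of the tested members was 1.57, 3.08 and 3.36 at the 3 doses, beside 0.99, 1.76 and 2.06 over all rows tested. Scaling set part of these values: at EGME75 the median over all rows was 1.56 with library totals alone and 2.94 with the sum of the 4 tables as library size, and the members' median exceeded it by 1.30 with TMM, 1.30 with totals alone and 1.17 with the 4 tables. The filter set part of this excess, since some members passed it only through the dosed groups. With all 113 members tested, as described below, the excess was 0.19. The split of all rows at EGME75 was 46 higher and 10 lower with TMM, 45 and 19 with totals alone, and 53 and 1 with the 4 tables. Leaving out 1 library moved the EGME75 median over all rows to between 0.81 and 2.04.

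Sequencing was spread over 13 chips, and every chip held males of 2 or 3 dose groups. With chip as a fixed block in edgeR, 5, 15 and 15 members were higher at the 3 doses in turn, and 1 was lower at the highest dose. Of all rows, 24.7%, 49.4% and 50.6% were then higher and 0%, 0% and 7.06% lower. With chip as a random block in limma-voom, which changes the test as well, no member was called at EGME50, where DESeq2 called 9 (25.9% of all rows). In the limma-voom fit 0% of all rows were called there, and 0 members had an unadjusted p under 0.05. At EGME60, 3 members were higher (2 antisense and 1 processed transcript) and 1 lower, beside 9.41% and 1.18% of all rows, and no lincRNA was called. At EGME75, 14 members were higher and none lower, beside 50.6% and 4.71%. Members 2 and 3 were among those that missed the threshold at EGME75 in that fit (4.42 and 4.84, adjusted p = 0.169 and 0.0966). They missed it at EGME60 as well (adjusted p = 0.953 and 0.563), with a log2 fold change of 0.24 for member 2. Members 4, 5, 7, 8, 15 and 18, described below, also missed it at EGME60 (1.70, 1.86, 2.55, 2.71, 2.53 and 2.17).

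When instead all 113 members were tested, among the 246 rows of the table with a summed count of at least 39, their share of calls lay near the background. At EGME75, 54 members (47.8%) were higher and 10 (8.85%) lower, beside 47.6% and 7.72% of all 246 rows. At EGME60, 45 (39.8%) were higher and 1 (0.885%) lower, beside 45.5% and 1.63%. At EGME50, 8 (7.08%) were higher and none lower, beside 10.6% and 0%, and at an unadjusted p under 0.05 the count was 28 of 113, beside 55 of 246. The slope was positive for 57 and negative for 6 members (50.4% and 5.31%), beside 49.6% and 3.25%. The median log2 fold change of the 113 members at EGME75 was 1.88, beside 1.69 over the 246 rows. Shares so near the background are no result about the members as a set.

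**Figure D2:**
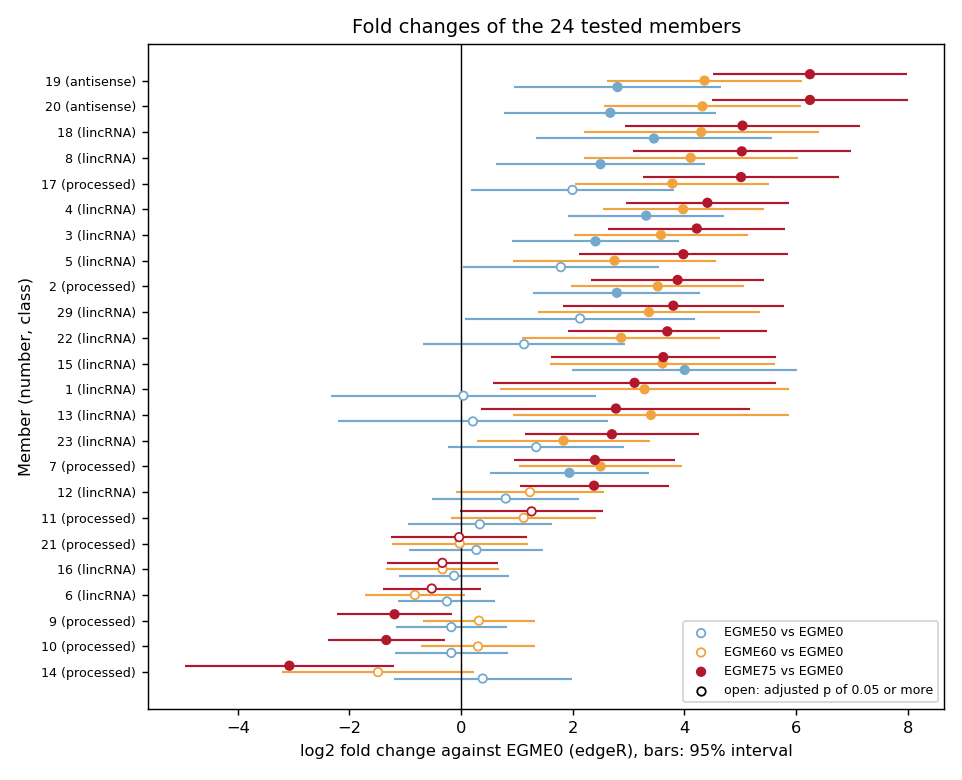
Log2 fold change against EGME0 with its 95% interval for the 24 tested members, at EGME50 (blue), EGME60 (orange) and EGME75 (red). Filled points passed the adjusted threshold of 0.05. At EGME75, 17 members lie to the right of 0 with filled points and 3, all processed transcripts, to the left.

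Counts are given by class for the 24 rows that passed the filter. Of 14 tested lincRNAs, 5, 11 and 12 rose at the 3 doses in turn and none fell, with median log2 fold changes of 1.57, 3.33 and 3.66. Both antisense members were called higher at all 3 doses, but they passed the filter only through the dosed groups. The same holds for lincRNA members 8, 13, 15 and 18, among others, and for processed transcript 17. The counts and medians by class therefore followed in part from the filter. Of 8 tested processed transcripts, 2, 3 and 3 rose at the 3 doses in turn, and 3 fell at the highest dose, with a median of 0.61 there. That last median was 0.11 with library totals alone, 1.32 with the 4 tables as library size and -0.45 when identical rows were kept separate, so it has no settled sign. With all 113 members tested, 37 of 79 lincRNAs (46.8%) were higher and 5 lower at EGME75, and 15 of 32 processed transcripts (46.9%) were higher and 5 lower. For orientation, all 26 tested rRNA rows rose at EGME75 (median 2.63), none of 12 snRNA rows passed in either direction (median 0.38, with 1 row at an unadjusted p under 0.05), and of 22 misc_RNA rows 2 rose and 7 fell (median -0.16). No test of the difference between classes was made.

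Among the lincRNAs, members 3, 4 and 5 were the most abundant that rose after member 1, which is described last. Member 4 (ENSRNOT00000087730) had levels of 0 to 24.2 with a median of 7.56 at EGME0, and of 4.69 to 240 with a median of 86.7 at EGME50. At EGME60 its levels were 0.594 to 440 with a median of 165, and at EGME75 76.0 to 445 with a median of 205. Each EGME75 library was above each EGME0 library, while the EGME60 group reached down into the control range. The log2 fold changes were 3.31 (SE 0.69, adjusted p = 0.00213), 3.98 (SE 0.71, adjusted p = 4.65e-05) and 4.41 (SE 0.72, adjusted p = 4.47e-06) in order of dose. Member 3 had medians of 14.2 (range 1.999 to 104), 74.5 (19.1 to 392), 206 (2.08 to 872) and 373 (152 to 1036) over the 4 groups. Here too all EGME75 libraries lay above all EGME0 libraries, with log2 fold changes of 2.41, 3.58 and 4.22 (adjusted p = 0.0124, 0.000209 and 2.66e-05). It was 1 of 2 members counted in all 39 libraries. With limma-voom and a random chip effect member 3 passed at no dose.

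Member 5 had medians of 11.4 (0 to 81.1), 33.6 (4.10 to 273), 62.5 (0 to 471) and 274 (0 to 756). Its EGME75 range overlapped EGME0 through replicate 24, the shallowest library, where it was at 0, and the other 9 libraries lay between 88.6 and 756. The log2 fold change of 1.79 at EGME50 did not pass (adjusted p = 0.129), and the changes of 2.75 at EGME60 and 3.98 at EGME75 did (adjusted p = 0.0108 and 0.000382). At EGME60 the call was lost without EGME0 replicate 1 or 25 or EGME60 replicate 14 or 22 (log2 fold changes of 2.02, 1.75, 1.64 and 1.78).

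Members 8, 15 and 18 were lincRNAs near or at 0 in most control libraries. They passed the filter only through the dosed groups, so their higher levels there followed in part from the filter. Member 8 was at 0 in 7 of 10 EGME0 libraries, with a highest level of 10.5, and had medians of 8.48 at EGME50, 29.6 at EGME60 and 83.0 at EGME75, where its range was 0 to 217. The log2 fold changes were 2.50, 4.11 and 5.03 (adjusted p = 0.0375, 0.000371 and 3.51e-05). The EGME50 call was lost (1.499 to 2.35) without any control library other than replicate 18, or without EGME50 replicate 12, 19, 20 or 35. Member 18 was at 0 in 8 of 10 EGME0 libraries (highest level 4.20) and had medians of 7.81 (0 to 36.1), 8.18 (0 to 84.0) and 23.8 (0 to 104) at the 3 doses, with log2 fold changes of 3.45, 4.30 and 5.04 (adjusted p = 0.0117, 0.000634 and 9.23e-05). The EGME50 call was lost without EGME0 replicate 26 (3.10, adjusted p = 0.0505). Pooled over the libraries, 6 counts at EGME0 stood against 260 at EGME75, a ratio of 32.3 with a 95% exact interval of 14.6 to 88.8 that covers counting error only. Among the 5 lincRNAs that rose at EGME50, member 15 was the one with its highest fold change there. Its log2 fold changes were 4.004, 3.61 and 3.62 (adjusted p = 0.00732, 0.00268 and 0.00202), and its medians of 10.3, 16.6 and 16.9 at the 3 doses, from 0 at EGME0, did not follow that order. The order of the fold changes rests on 1 library: EGME50 replicate 36 held 129 of its 190 counts there, and without that library the EGME50 value was 2.45, below the other doses. The EGME60 call was lost without EGME60 replicate 22 (2.41, adjusted p = 0.0514).

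Both antisense members come from 1 gene, member 20 standing for 2 rows with identical counts, and members 19 and 20 had equal counts in 36 of 39 libraries. They are therefore treated as 1 signal, and how reads were shared between these overlapping transcripts is not known. Both passed the filter only through the dosed groups, so their higher levels there followed in part from the filter. Member 19 (ENSRNOT00000092862) was at 0 in 9 of 10 EGME0 libraries and had 3 counts, a level of 3.19, in replicate 17. At EGME50 its levels were 0 to 12.4 with a median of 2.38, at EGME60 0.891 to 27.5 with a median of 10.5, and at EGME75 4.14 to 121 with a median of 21.8. Each EGME75 library lay above the highest EGME0 library, and no library at EGME60 or EGME75 was at 0. In EGME75 replicate 24, the shallowest library, the level of member 19 rested on 1 count. The log2 fold changes of 2.80, 4.36 and 6.25 (SE 0.92, 0.86 and 0.86, adjusted p = 0.0188, 0.00011 and 2.23e-07) were the highest of the tested members at EGME60 and EGME75. Pooled, 3 counts at EGME0 stood against 378 at EGME75, a ratio of 93.9 with a 95% exact interval of 31.9 to 457. The fitted values depend on those 3 counts: without EGME0 replicate 17 they were 6.57 at EGME60 and 8.46 at EGME75, where all remaining controls are at 0 and the value is no bound, and over the other fits with 1 library left out they were lowest at 3.22 and 5.08. The EGME50 call was not firm, since it was lost in 11 of the 20 fits that left out 1 library of these groups (log2 fold change 1.97 to 5.01, adjusted p = 0.00833 to 0.154). The libraries in question were replicates 1, 2, 9, 10, 25, 26 and 34 of the controls and replicates 12, 19, 28 and 35 of EGME50.

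**Figure D3:**
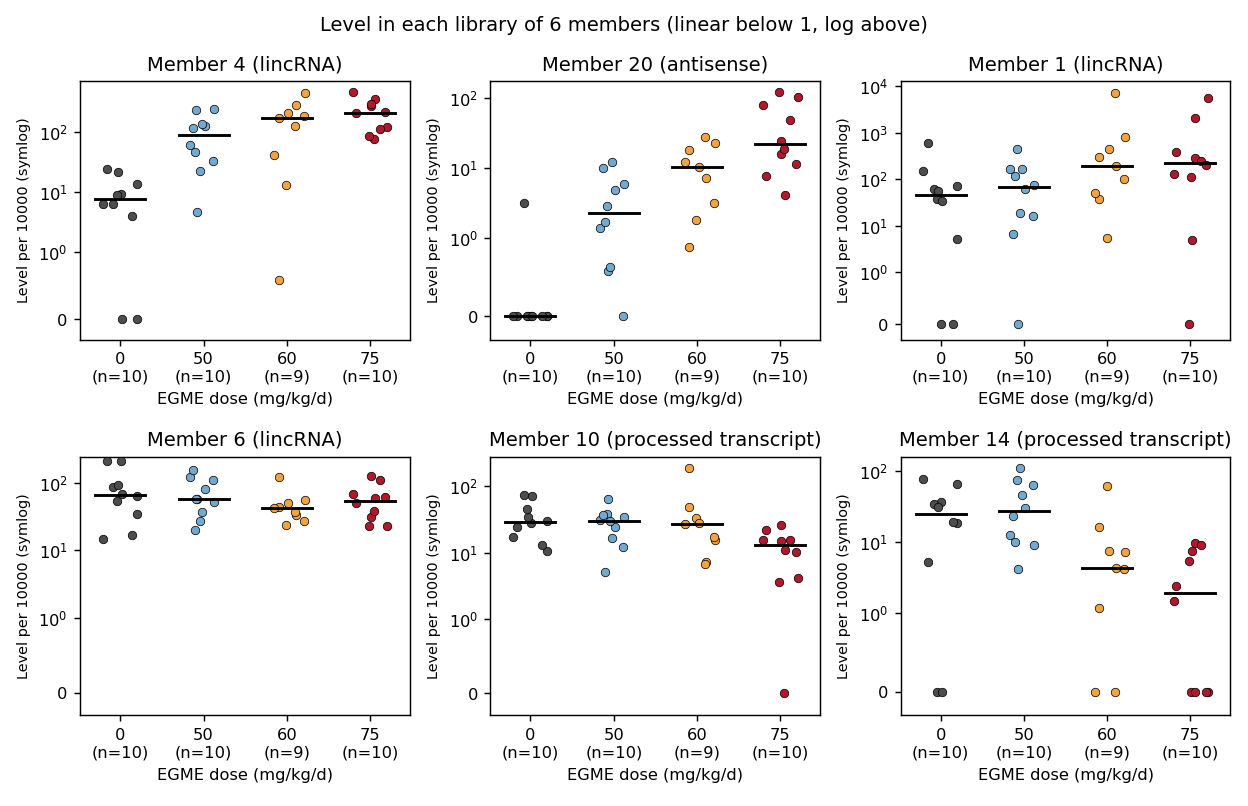
Level per 10000 scaled counts in each library for 6 members by EGME dose, on an axis that is linear below 1 and logarithmic above. Each point is 1 male and each bar is the group median. On these scaled levels members 4 and 20 lie above the control range in all EGME75 libraries. Member 1 spreads widely within groups, the groups of member 6 overlap, and members 10 and 14 are lower at EGME75.

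Among the processed transcripts, member 2 was the most abundant and rose at every dose. Its levels were 6.12 to 65.1 with a median of 19.5 at EGME0, 7.03 to 451 with a median of 120 at EGME50, 0 to 754 with a median of 351 at EGME60 and 110 to 702 with a median of 338 at EGME75. All EGME75 libraries were above all EGME0 libraries, and the EGME60 library at 0 was replicate 6. The log2 fold changes were 2.79, 3.52 and 3.88 (adjusted p = 0.00876, 0.000221 and 6.48e-05). With limma-voom and a random chip effect member 2 passed at no dose, and its EGME60 value was 0.24 (adjusted p = 0.953). Member 7 had medians of 6.62 (0 to 57.9), 15.7 (8.09 to 198), 51.1 (1.19 to 170) and 41.1 (22.4 to 119), with overlap of all groups. Its log2 fold changes of 1.94, 2.50 and 2.40 passed (adjusted p = 0.0361, 0.00385 and 0.00334), but at EGME75 not without EGME0 replicate 1, 9, 25 or 26, where they were 1.48, 1.38, 1.47 and 1.28. At EGME60 it was lost without EGME0 replicate 1 or 25 or EGME60 replicate 22 (1.65, 1.70 and 1.56). The EGME50 call was lost (1.11 to 1.92) without control replicate 1, 9, 10, 17, 25, 26 or 34 or EGME50 replicate 12, 19, 20, 28 or 36. Member 17 was at 0 in 7 of 10 EGME0 libraries (highest level 4.61) and reached a median of 35.02 at EGME75 (0 to 118). This member, too, passed the filter only through the dosed groups. Its log2 fold change of 1.99 at EGME50 did not pass (adjusted p = 0.0965), and those of 3.78 and 5.01 at EGME60 and EGME75 did (adjusted p = 0.0003 and 6.97e-06).

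Among the 24 filtered rows, the 3 members that fell at EGME75 were processed transcripts (with all members tested, 5 of the 10 that fell were lincRNAs, and without the 2 shallowest libraries 2 of the 5 that fell were). Member 14 (ENSRNOT00000092518) had levels of 0 to 78.1 with a median of 25.2 at EGME0 and 4.10 to 111 with a median of 27.1 at EGME50. At EGME60 it had 0 to 61.0 with a median of 4.34, and at EGME75 0 to 9.65 with a median of 1.93, with 4 of 10 libraries at 0. The EGME75 libraries were low but overlapped EGME0, where 2 libraries were at 0. The log2 fold change was -3.08 (SE 0.93, adjusted p = 0.00373) at EGME75, and 0.39 and -1.49 at EGME50 and EGME60 (adjusted p = 0.731 and 0.149). Without EGME60 replicate 13 the EGME60 value passed (-3.26, adjusted p = 0.00141). Member 14 stayed lower under the 3 other scalings, at -3.15 with RLE factors, -3.56 with totals alone and -2.26 with the 4 tables as library size, each past the threshold, but not with limma-voom and a random chip effect (-2.47, adjusted p = 0.0657).

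Members 9 and 10 come from 1 gene and had equal counts in 31 of 39 libraries, so they too are 1 signal. Member 10 (ENSRNOT00000077967) had medians of 28.5 (10.5 to 74.3), 30.2 (5.08 to 62.7), 26.7 (6.78 to 186) and 12.9 (0 to 25.8), the last group being the low one and still overlapping EGME0. Its log2 fold change at EGME75 was -1.34 (SE 0.52, adjusted p = 0.0227), and that of member 9 was -1.19 (adjusted p = 0.0381). Both fell short of the threshold with the 4 tables as library size (-1.01 and -0.85 for members 10 and 9), with chip as a fixed block (-0.81 and -0.62) and with a random chip effect (-1.11 and -0.98). Both also missed it without EGME0 replicate 17 (-1.11 and -0.96), and member 9 without EGME75 replicate 7 (-1.07). At EGME60 the values did not pass (0.30 and 0.32), but passed on the high side without EGME60 replicate 14, 22, 29, 30 or 38 (1.82 to 1.99). EGME60 replicate 6 held 41.6% of the counts of member 10.

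Some abundant members did not pass at any dose. Member 6 (ENSRNOT00000078626), a lincRNA and the other member counted in all 39 libraries, had medians of 66.2 (14.8 to 213), 58.0 (20.3 to 154), 42.1 (24.02 to 120) and 54.5 (22.96 to 128), with all groups overlapping. Its log2 fold changes were -0.25, -0.83 and -0.53, and the 95% interval at EGME75 was -1.40 to 0.35. This interval depends on scaling: the value was 0.17 with the 4 tables as library size, and it was past the threshold on the low side in 15 of 20 fits that left out 1 library of these groups (range over the 20 fits -1.41 to -0.43). Its slope on dose did not pass in the main fit. With 1 library left out the slope passed on the low side in 31 of 39 fits (range over the 39 fits -1.49 to -0.57). Member 16 (ENSRNOT00000078840), a lincRNA, had medians of 13.5, 9.53, 9.24 and 13.1 and a log2 fold change of -0.34 at EGME75 (95% interval -1.34 to 0.66). It passed on the low side in 5 of the 20 fits with 1 library left out, without EGME0 replicate 1, 9, 25 or 26 or EGME75 replicate 23 (-1.22 to -1.07), and with the mitochondrial rows kept (-1.30), and was 0.43 with the 4 tables as library size. Member 21 (ENSRNOT00000003689), a processed transcript, had medians of 4.392, 14.03, 12.02 and 8.596 and a log2 fold change of -0.04 (95% interval -1.26 to 1.19). It passed on the low side without EGME0 replicate 9 or 26 (-1.32 and -1.25) and with the mitochondrial rows kept (-1.23), and was 0.71 with the 4 tables as library size. None of these intervals shows that a level was the same in both groups.

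Member 1, a lincRNA, had the highest mean share of all members (3.73%) and the widest spread. Its levels were 0 to 618 with a median of 47.0 at EGME0, 0 to 459 with a median of 69.1 at EGME50, 5.54 to 7310 with a median of 193 at EGME60 and 0 to 5716 with a median of 223 at EGME75. EGME60 replicate 22 held 17247 of its 29545 counts (58.4%), and EGME75 replicate 7 another 6971. All groups overlapped. The log2 fold change was 0.04 at EGME50 (adjusted p = 0.973), 3.29 at EGME60 (adjusted p = 0.0287) and 3.11 at EGME75 (adjusted p = 0.0289), with standard errors of 1.17, 1.27 and 1.25. The EGME60 call rested on replicate 22, without which the value was 0.54, and the EGME75 value was 1.78 and did not pass without replicate 7. Other single libraries also ended these calls. At EGME60 they were control replicates 1, 2, 10, 18, 25, 26, 33 and 34 and EGME60 replicates 5, 14, 21, 29 and 30 (log2 fold changes of 2.23 to 2.94 without each). At EGME75 they were control replicates 1, 2, 10, 18, 25, 26 and 33 and EGME75 replicate 24 (2.16 to 2.73). Over the 39 libraries the row most like it was member 13, another lincRNA, with Spearman's rho of 0.89 (0.70 to 0.97 within the 4 groups), followed by member 39 with 0.71 and a misc_RNA row with 0.66. These are descriptions of 39 points that share library and scaling. Member 13 also had 54.0% of its counts in EGME60 replicate 22.

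**Figure D4:**
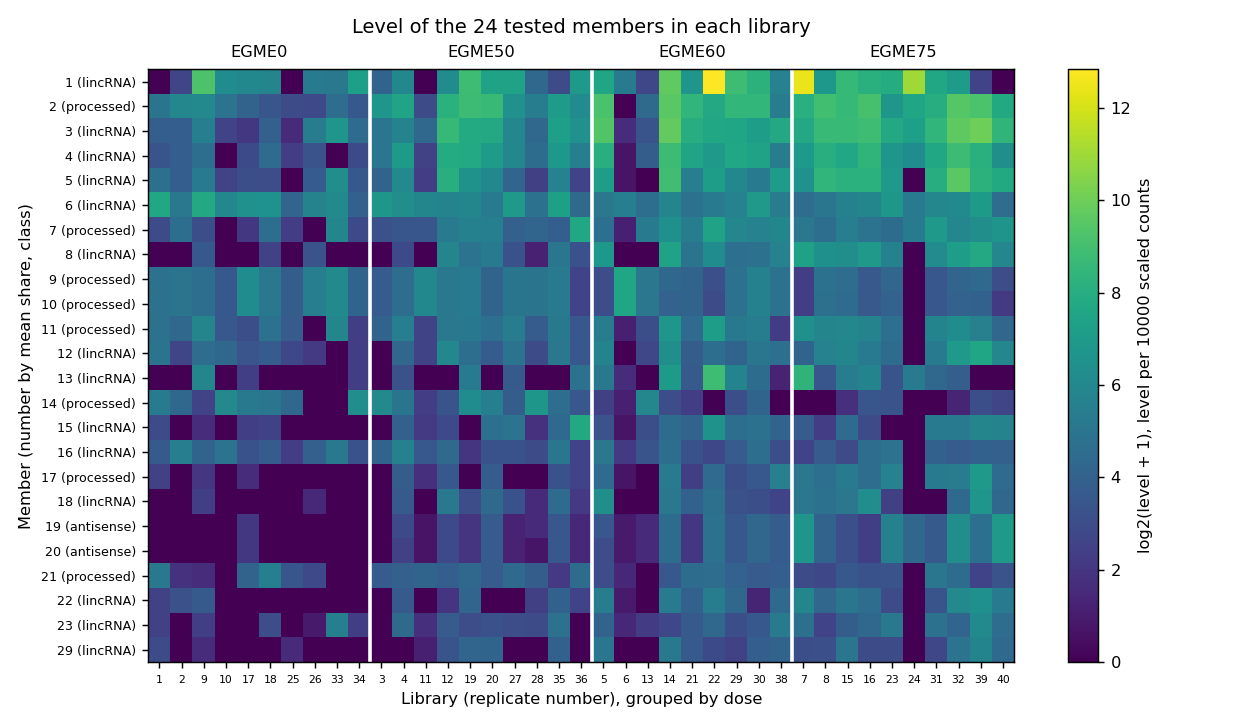
Level of the 24 tested members in the 39 libraries as log2(level + 1), with rows in order of mean share and columns grouped by dose and named by replicate number. Rows 8, 13, 15, 17 to 20, 22 and 29 are dark across most EGME0 libraries and lighter at EGME60 and EGME75. The dark EGME75 column is replicate 24, which has 421 counts, and rows 2 to 5 are darker than in most of their group in EGME60 replicates 6 and 13.

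The dosed groups were not uniform. At EGME60, members 2 to 5 were low in replicates 6 and 13 and high in replicate 14. By raw counts, EGME60 replicate 22 was the top library for 44 of the 113 members, EGME60 replicate 38 for 20 and EGME75 replicate 7 for 7. Replicates 22 and 38 were also the deepest libraries (54121 and 55919 counts without mitochondrial rRNA, before identical rows were merged). The part of depth in this tally was not tested. Of the 24 tested members, 21 had a higher median at EGME50 than at EGME0, 18 a higher one at EGME60 than at EGME50, and 16 a higher one at EGME75 than at EGME60. The medians of 14 members rose at all 3 steps. Members that passed the filter only through the dosed groups are among the 24, so these tallies followed in part from the filter. The same tallies for the other tested rows are not given here. Among the tested members, the median Spearman's rho over the 276 pairs of members was 0.17, 0.27, 0.48 and 0.22 within the 4 groups, taken from the lowest dose up. Between the members and the summed level of the rRNA rows the median rho was 0.09, 0.65, 0.54 and 0.40 in the same order, so near 0 at EGME0. With the summed level of the snRNA rows it was 0.24, 0.27, 0.525 and 0.41. These values rest on 9 or 10 libraries that share depth and scaling, and no p is attached. The part of rRNA fragments in the member results was not tested.

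Over all 113 members, including those that were not tested, the mean level was higher at EGME75 than at EGME0 for 84 and lower for 29. By medians, 76 were higher, 17 lower and 20 had a median of 0 in both groups. The same tallies over all 246 rows with that minimum count are not given here. Members could also reach the minimum through the dosed groups. These tallies are therefore no result about the members as a set. Every EGME75 library lay above every EGME0 library for 6 members, namely 2, 3, 4, 19, 20 and the untested processed transcript 28, beside 8.54% of the 246 rows with the same minimum count. For members 19, 20 and 28 this rested on 1 count in EGME75 replicate 24. For members 19 and 20 it held on scaled levels but not on shares of the remaining counts. At EGME50 and EGME60 no row of the 246 (0%) and no member had its groups apart in either direction, and at EGME75 none had them apart downward. The 89 untested members had summed counts of 39 to 476 with a median of 82. Their highest median level at EGME75 was 21.6 per 10000.

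Of the untested members, 16 had no count in any of the 10 EGME0 libraries, where a count of 0 allows a pooled level of up to 0.484 per 10000 (3 counts over the group, counting error only). At EGME75 all 16 had counts, and their pooled levels were at least 2.24-fold to 49.2-fold higher than that limit. Without a count at EGME0, such a member could reach the minimum summed count only through the dosed groups. Higher counts there followed from the selection, so these ratios are no separate support for a rise. The share of all rows of the table without EGME0 counts is not given here. When the EGME75 library with the most counts of each member was left out, the ratios to the limit were 0.582 to 44.5, so the lowest is no bound on a rise. The member with the highest bound, member 43, had 4 counts at EGME50, 210 at EGME60 and 198 at EGME75, at least 27.2-fold higher at EGME60 and at least 49.2-fold higher at EGME75. For member 43, EGME60 replicate 38 held 150 of the 210 counts, and without it the EGME60 level was at least 11.2-fold higher. Member 40 had 8, 148 and 178 counts, at least 19.1-fold and 44.2-fold higher at EGME60 and EGME75. Both were chosen after their values were seen. At EGME50, 9 members had no count, and at EGME60 and EGME75 every member had at least 1. The control libraries were also the shallower ones, and the part of depth in these zeros is covered only by the limit given.

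Several members share a gene. The 115 rows came from 97 genes, of which 11 had more than 1 row and 1 had 6. In these 11 genes, pairs of rows had equal counts in between 1 and 39 of the 39 libraries. Counts of such transcripts are uncertain where the same short read can lie in both. The members were thus fewer independent signals than their number.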

How the data were processed

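Small RNA libraries of sperm from 39 males (Ion total RNA-seq kit, per the labels' protocols) were used as the raw counts the authors deposited, in 4 tables (miRNAs, tRNA genes, Ensembl noncoding transcripts and RNAcentral entries) that name the assembly Rnor_6.0. The submitters' processing notes list FastQC, Bowtie and DESeq2. How reads that fit several transcripts were counted is not given in the sources used here, so rows that share sequence are uncertain, and the table is titled as sense counts. All columns matched a sample (columns without a sample: 0).

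The 2 mitochondrial rRNA rows were left out and rows with identical counts merged, giving 835 rows. The test was edgeR's (4.0.16, under R 4.3.3): filterByExpr by dose group (85 rows kept), TMM factors (0.509 to 1.32), robust quasi-likelihood fits over the 4 groups, and two-sided tests of each dose against EGME0 and of the slope on dose, given as a log2 change from 0 to 75 mg/kg/d. Benjamini-Hochberg adjustment covered all rows tested. The common coefficient of biological variation was 0.742. Depth was 421 to 46357 counts per library, which limits precision most in EGME75 replicate 24. The pooled exact intervals and the limits on a count of 0 cover counting error only, and the 95% intervals of fold changes come from the edgeR fit. On simulated data with 84 rows tested, for EGME75 against EGME0, the test recovered 21.1% of rows changed by a log2 value of 1, 100% of those changed by 2 or 3, and called 0% of unchanged rows. Every simulated row had the common variation of 0.742, with no chip effect and no outlying library. As many rows were changed upward as downward, whereas the real EGME75 comparison had 46 rows higher and 10 lower. A shift from scaling is therefore not covered, and the unchanged rows numbered only 25. Recovery of members that vary more than 0.742 is not covered either.

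Alternatives were RLE factors, library totals alone, the sum of the 4 tables as library size, mitochondrial rows kept, identical rows kept separate, no filter, DESeq2 1.42.0, limma 3.58.1 (voom) with chip as a random block, chip as a fixed block (13 chips of 3 libraries), only the 2 groups compared, and each library left out in turn. A filter of a summed count of 39 and fits without 2 libraries at a time were added after seeing the data. Tables were handled with numpy 2.4.6, pandas 2.3.3 and scipy 1.17.1, and figures drawn with matplotlib 3.10.9. Each library is 1 male, as the labels state.

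The members, lists and tests were chosen with earlier results of these data known. Members named with values were the 6 with the highest mean share, those past the threshold at EGME75 with a mean of at least 10 counts (up to 8 in each direction), any called at EGME50, and the 2 with the smallest fold change at EGME75 with a mean of at least 10 counts. Of members without gene names, the identifiers of at most 2 that rose and 2 that fell are printed. No sequence of these transcripts was used here.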

Additional observations from a re-analysis of the deposited data

Results flagged for a closer look

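In 10 of the 76 combinations of member and dose group examined, 1 library stood apart from the rest of its group by a gap test on log2(level + 1) at the 95% level, which chance passes in about 1 of 20 groups. Most flags came from EGME75 replicate 24, the library with 421 counts, where 1 count is worth 18.999 per 10000. In it members 5, 8, 9, 16, 17 and 21 were at 0, while the other 9 EGME75 libraries had lowest levels of 88.6, 49.3, 4.10, 4.92, 21.4 and 4.93 per 10000. A count of 0 there does not exclude levels of the size of 1 to 3 counts.

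Members 19 and 20, the antisense pair, were both at 3.185 per 10000 in EGME0 replicate 17, and at 0 in the other 9 control libraries. Member 7 was at 1.19 in EGME60 replicate 6, against 24.6 to 170 in the other EGME60 libraries. Member 21 was at 3.352 in EGME50 replicate 35, against 12.1 to 22.01 in the rest of that group.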

How the results depend on the processing

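No paired analysis was possible because each replicate number belongs to a single male of a single dose group. At EGME50, where 9 members were called, 5 were called with identical rows kept separate, 1 without a filter, 5 with chip as a fixed block, 4 with only the 2 groups compared (10 members tested), and 4 to 9 with 1 library left out. The share of all rows called higher was 21.85%, 0.12%, 24.7%, 44.4% and 7.06% to 27.1% in the same order, and no row was lower. None (0) was called by limma-voom with a random chip effect (0 at an unadjusted p under 0.05), where DESeq2 called 9 (25.9% of all rows). At EGME60, against 16, the counts were 34 without a filter, 4 with limma-voom, 5 with only the 2 groups compared (13 tested) and 46 with the summed count filter. These counts and those below join both directions. Without a filter 33 members were higher and 1 lower, beside 69 and 38 of all 834 rows. With only the 2 groups compared all 5 were higher, beside 15 higher and 0 lower of 51 rows. Shares for limma-voom and the summed count filter are given above. At EGME75, against 20, the counts were 33 with the mitochondrial rRNA rows kept, 53 without a filter, 10 with only the 2 groups compared (11 tested) and 64 with the summed count filter. With the mitochondrial rows kept 27 members were higher and 6 lower, beside 63 and 31 of 132 rows. Without a filter 41 were higher and 12 lower, beside 104 and 94 of 834 rows. With only the 2 groups compared 8 were higher and 2 lower, beside 24 and 11 of 46 rows. For the slope, against 17, the counts were 29, 52 and 63 with the mitochondrial rows kept, no filter and the summed count filter. With the mitochondrial rows kept 26 members had a positive and 3 a negative slope, beside 63 and 19 of 132 rows. Without a filter these were 44 and 8, beside 152 and 85 of 834 rows. No filter and the summed count filter test all 113 members, and keeping the mitochondrial rows left 46 to test. For the other changes the cause was not tested. Of the named members' fold changes, none of those called changed sign while past the threshold under these alternatives. With 1 library left out, 13 to 20 members were called at EGME60, 17 to 22 at EGME75 and 14 to 24 for the slope. In those fits the median over all rows at EGME75 ran from 0.81 to 2.04, and the median of the filtered members exceeded it by 0.84 to 1.98. This excess followed in part from the filter, which some members passed only through the dosed groups. With the summed count filter it was 0.19 at EGME75 and -0.19 at EGME50. Without EGME60 replicate 22 and EGME75 replicate 7, 15 members were higher and 3 lower at EGME75, beside 44 and 16 of 87 rows. Member 1 was then at 1.21, not past the threshold. Without the 2 shallowest libraries, 15 members were higher and 5 lower, beside 43 and 21 of 88 rows. Low counts kept 89 members from being tested under the main filter.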

Other observations

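The table of RNAcentral entries has its own class of long noncoding RNA, which was not part of the comparisons above. It made up 3.72%, 3.91%, 4.32% and 5.37% of that table in the median library of the groups EGME0, EGME50, EGME60 and EGME75. The ranges of the groups overlapped, and these shares were not tested.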
